A study of Daphnia magna with 3 samples.

Results

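Eggs and antennae of the water flea Daphnia magna were compared here, by median correlation the least similar pair among the 7 body parts profiled. Over the 4035 genes kept by a count filter set on the 7 body parts together, each with enough reads in at least 3 libraries, the median Spearman coefficient between an egg and an antenna library was 0.14, the lowest of the 21 pairs of body parts, with eggs and carapace next at 0.18. The ranges over library pairs overlapped, at 0.07 to 0.2 and 0.08 to 0.36, and eggs and head reached down to 0.01. The comparison holds 6 of the series' 21 libraries, namely the egg and the antenna library of each of 3 replicates. These were chosen by the body part and replicate written beside every count. Each replicate, numbered 3, 4 and 7, is 1 pool in which a barcode marks each body part, and all libraries come from the genotype IL-M1-8, kept under the standard laboratory protocol at 20 °C in ADaM medium with a daily feed of green algae. RNA was prepared as cDNA by ligation and read on an Oxford Nanopore instrument, where 1 read comes from 1 cDNA molecule. The labels give no age of the animals, no stage of the eggs, and no word on which pair of antennae was taken or on how many animals were pooled. They also do not say that the replicates were separate cultures, so the p-values below measure the spread between these libraries, which may be technical.

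Daphnia females carry their eggs in a brood chamber under the carapace, and an early animal egg runs on RNA and yolk that the mother laid down before the embryo's own genes become active. The first antennae of Daphnia are short sensory appendages, and the second antennae are large branched limbs whose muscles drive swimming. All of these appendages are covered by a cuticle that is shed and rebuilt at each moult. The genes counted here carry model identifiers only, such as a predictor's name, a contig and a number. Of the 33957 identifiers, 0 match the RefSeq gene table, so no gene can be named by function and the labelled body parts could not be checked against marker genes. Genes are therefore described by contig, model number and length, for 2 genes per direction; GeneMark and MAKER, named with them, are gene prediction software. In bulk RNA of this kind, a lower level can mean fewer cells of a type or less RNA per cell, and these cannot be told apart.

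The egg libraries held 175876, 159154 and 326037 reads in replicates 3, 4 and 7. The antenna libraries held 148692, 58544 and 1105094 reads, so the antenna of replicate 7 was by far the deepest of the 6 and that of replicate 4 the shallowest. Among the 2785 genes that passed the count filter, the egg libraries correlated with each other at a Spearman coefficient of 0.81 to 0.87 and the antenna libraries at 0.76 to 0.89, across genes. Between an egg and an antenna library the coefficient was -0.03 to 0.16. A gene could pass the filter through the body part where it is high alone, which lowers the coefficients between the parts. These coefficients run across genes, which are not independent replicates, and carry no test. The spread between replicates, as edgeR's biological coefficient of variation, was 0.312 within eggs and 0.427 within antennae.

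Antennal RNA was concentrated in few genes and egg RNA was spread over many. The most counted gene of a library took 3.88%, 0.944% and 5.71% of egg reads in replicates 3, 4 and 7, and 10.4%, 22.3% and 15.4% of antenna reads, so the groups did not overlap. In eggs the 10 most counted genes held 8.41%, 6.15% and 10.2% of the reads, against 28.6%, 37.7% and 33.2% in antennae, so these too did not overlap. To reach 50% of the reads, 513, 482 and 468 genes were needed in the egg libraries. The antenna libraries needed 85, 39 and 63, fewer than any egg library. With each library thinned to the 58544 reads of the shallowest, 7052, 6893 and 7072 genes had a read in eggs and 6166, 5514 and 5973 in antennae. The difference of 1121.3 genes, between 7005.7 ± 98.1 (SD, n = 3) and 5884.3 ± 334.9 (SD, n = 3), had p = 0.1 by a two-sided exact permutation test. That is the smallest value that 3 libraries against 3 can give. The shares in the most counted and the 10 most counted genes gave the same p in the same exact permutation test. So did the number of genes behind 50% of the reads. That test exchanges libraries freely and leaves out the pairing of eggs and antennae by pool. An exact permutation test that kept this pairing, by sign flips within pools, gave p = 0.25 for the difference in genes detected. The paired form is given for genes detected only.

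**Figure D1:**
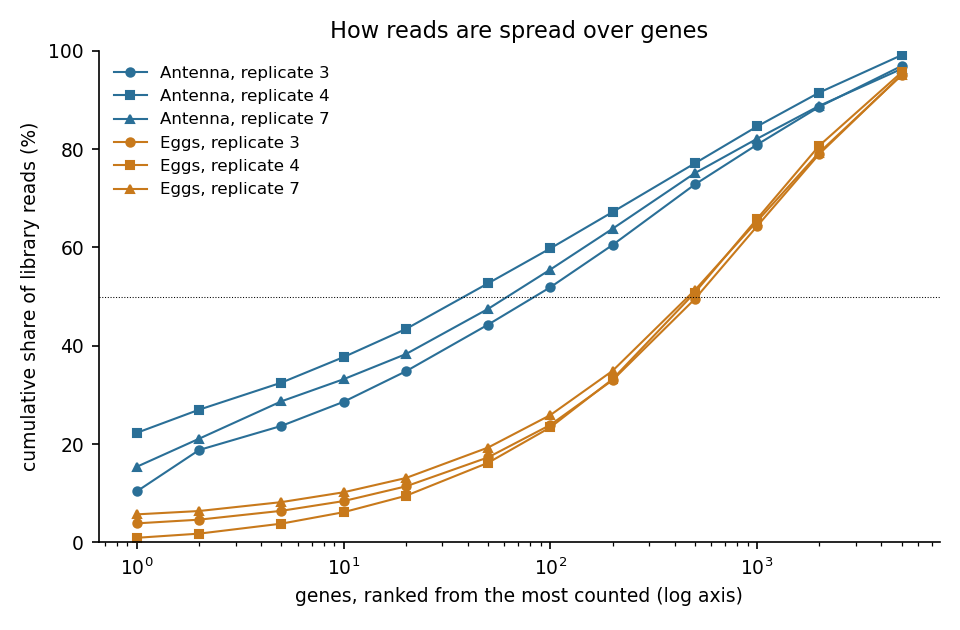
The x axis ranks the genes of each library from the most counted on a log axis, and the y axis adds up their share of library reads in percent; each line is 1 library, with eggs in orange and antennae in blue. The 3 antenna lines cross the dotted line at 50% of reads at 39 to 85 genes and the 3 egg lines at 468 to 513.

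Of the 2785 genes tested, 784 were higher in eggs, 28.2% of those tested, and 671 were higher in antennae, 24.1% (edgeR quasi-likelihood test, two-sided, Benjamini-Hochberg adjusted over the genes tested, threshold 0.05). Together these are 52.2% of the tested genes. The 784 are called egg-high below and the 671 antenna-high. The 3 egg libraries did not overlap the 3 antenna libraries for 755 of the 784 and 622 of the 671, where 59.9% of all tested genes did not overlap. Within the pools, 766 of the egg-high genes were higher in eggs in 3 of 3 replicates, and 645 of the antenna-high genes were higher in antennae in 3 of 3. The median log2 difference of the egg-high genes was 2.03, 3.03 and 1.88 in replicates 3, 4 and 7. For the antenna-high genes it was -3.05, -2.96 and -2.49. The same libraries made the calls, so agreement between the pools follows in part from the selection and adds no support.

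The balance between the directions depends on how the libraries are scaled. The TMM factors were 1.79, 1.69 and 1.55 for eggs and 0.65, 0.58 and 0.56 for antennae, and with them 53.9% of the calls were egg-high and the median log2 fold change of all tested genes was 0.20. Scaled by library size alone, 1767 genes were higher in eggs and 377 in antennae, so that 82.4% of the calls were egg-high, and fold changes shifted by 1.48 toward eggs. The shift was 0.16 with RLE factors and 0.25 with upper quartile factors.

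**Figure D2:**
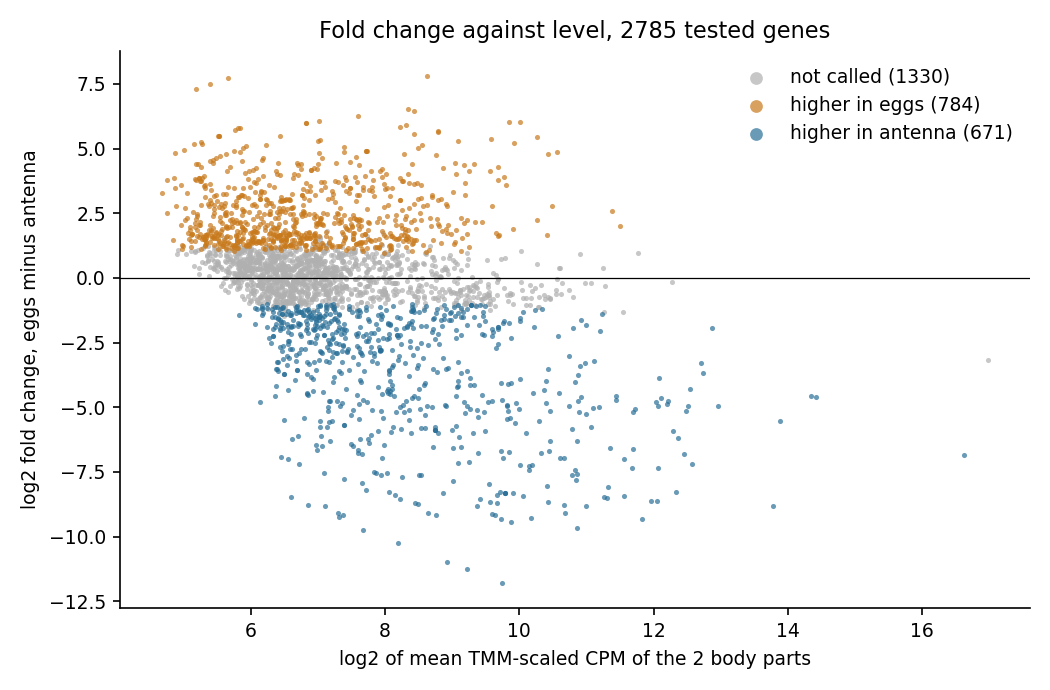
The x axis is the log2 of the mean TMM-scaled CPM of eggs and antennae and the y axis the log2 fold change, eggs minus antenna, for the 2785 tested genes; orange genes were higher in eggs, blue genes higher in antennae and grey genes not called. Blue points reach far lower and farther right than orange points reach up: 51 genes lie past 8 on the log2 scale toward antennae and 0 toward eggs.

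With TMM factors, the antennal differences were the steeper ones. The median log2 fold change was 2.11 over the egg-high genes, with quartiles of 1.53 and 3.19, and -2.97 over the antenna-high genes, with quartiles of -5.15 and -1.77, beside 0.20 over all genes tested. A difference of over 16-fold was fitted for 102 egg-high genes, 13% of them, and for 261 antenna-high genes, 38.9%. Past 64-fold there were 11 egg-high and 119 antenna-high genes, and past 256-fold 0 and 51. The order depends on the scaling. With library size alone the same 784 and 671 genes had medians of 3.60 and -1.48. Of the genes called under that scaling, 300 in eggs and 152 in antennae were past 16-fold, but 59 and 66 past 64-fold. With RLE and upper quartile factors the antennal differences were again the steeper ones, with medians of -2.81 and -2.71 against 2.27 and 2.35 for the same genes. The other end was the reverse: 362 egg-high genes and 223 antenna-high genes lay between 2-fold and 4-fold. The TMM-scaled levels differed too. The median was 161 CPM in eggs for the egg-high genes and 437 CPM in antennae for the antenna-high genes. In the other body part the medians were 31.7 CPM and 48.2 CPM. CPM here are counts scaled to 1e+06 reads of TMM-adjusted library size, and each of these values is a level. The TMM factors lower the egg values and raise the antennal ones, so the gap between 161 and 437 CPM depends on the scaling as well.

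Of genes with separate groups and at least 20 reads in each library of the higher body part, the 2 with the largest fitted fold change per direction are described. The larger toward eggs was found for the GeneMark model 0.2 of contig falcon_000241F, a short one of 165 bases. It had 146, 308 and 182 reads in the egg libraries of replicates 3, 4 and 7, and 0, 0 and 2 in the antenna libraries. Every egg library was thus far above every antenna library, although the egg of replicate 4 had more reads than the deeper egg of replicate 7. The level was 786 ± 503 CPM in eggs (SD, n = 3) and 1.28 ± 2.21 CPM in antennae (SD, n = 3), a log2 fold change of 7.80 ± 0.87 (SE, edgeR adjusted p = 4.28e-06). In the 15 libraries of the other body parts it had at most 14 reads, in the carcass of replicate 4.

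The other gene toward eggs, placed by a fitted value that rests on 0 antennal reads, was the MAKER model 24.21 of contig falcon_000001F, its transcript 2 of 2793 bases, with 23, 20 and 53 egg reads and 0 reads in each antenna library. Its egg level was even across the replicates, at 101 ± 21.8 CPM (SD, n = 3). A count of 0 allows up to 3 reads over the 3 antenna libraries, for counting error only. Against that limit and with TMM factors, eggs were at least 22.5-fold higher (edgeR adjusted p = 2.3e-05). Among the other body parts, hemocytes of replicate 4 had 10 reads and the head of replicate 3 had 7, against 0 in the heads of replicates 4 and 7.

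Toward antennae, both genes had 0 egg reads, so their fitted values give no firm order. One was the MAKER model 42.61 of the same contig, falcon_000001F, with 1563 bases. It had 185, 51 and 646 reads in the antenna libraries of replicates 3, 4 and 7 and 0 in each egg library. The antennal level was 1710 ± 475 CPM (SD, n = 3), and with TMM factors eggs were at least 419-fold lower (edgeR adjusted p = 1.93e-06). The other body parts had few reads of it, with the most, 73, in the carcass of replicate 3 and 1 to 21 in the carapace libraries.

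The other was the MAKER model 8.149 of contig falcon_000038F, of 2181 bases, with 93, 46 and 500 antenna reads and 0 egg reads. Its level was 1200 ± 299 CPM in antennae (SD, n = 3), and with TMM factors eggs were at least 303-fold lower (edgeR adjusted p = 1.93e-06). The carapace libraries had 4, 7 and 3 reads, less than 1 in 10 of the antennal share in the same replicate. As a share of library reads, both genes were higher in every antenna library than in any library of another body part.

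**Figure D3:**
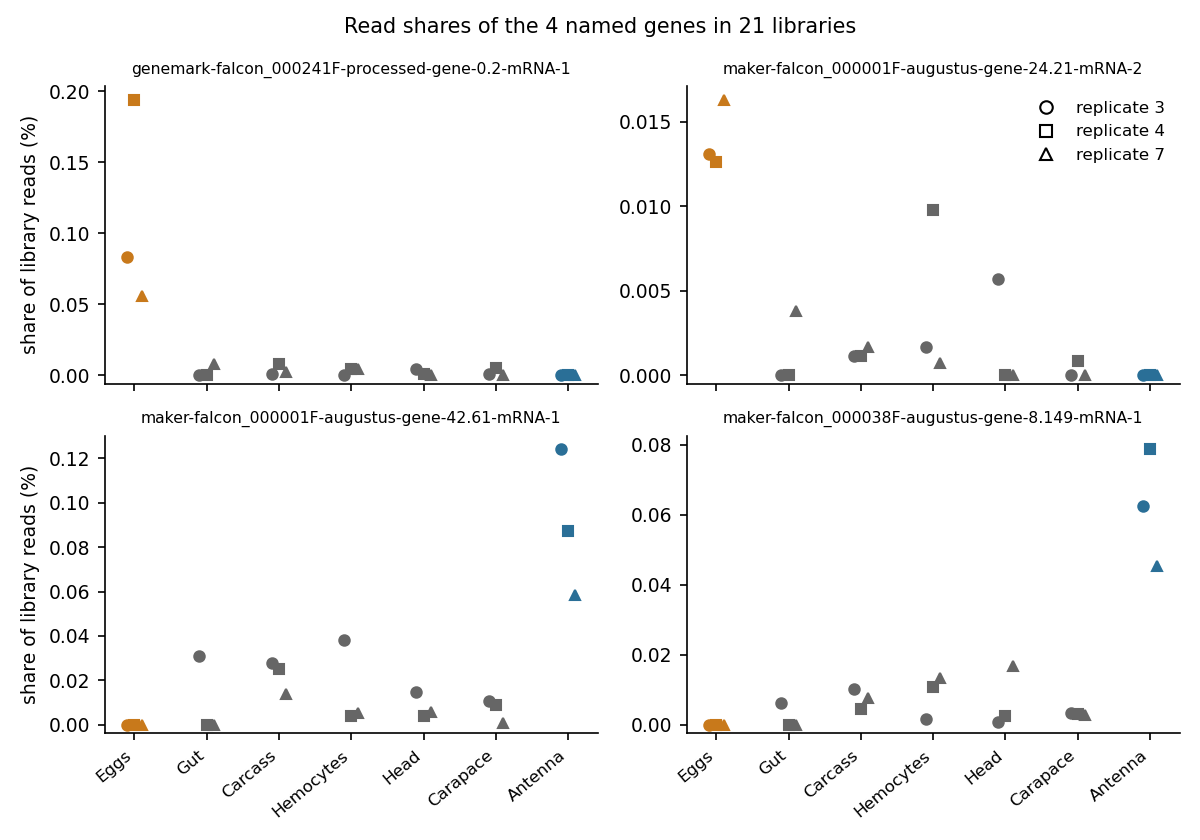
Each panel gives 1 named gene, with the body parts on the x axis and the share of library reads in percent on the y axis; each point is 1 library and its shape gives the replicate. In the upper panels the 3 egg libraries lie above all others and the antenna libraries sit at or near 0, and in the lower panels the 3 antenna libraries lie above all others and the egg libraries are at 0.

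A count of 0 in one body part was more often met on the egg side. Of the antenna-high genes, 11 had no read in the 3 egg libraries, with 613, 227 and 2508 reads together in the antennae of replicates 3, 4 and 7, and eggs were lower by at least 45.1-fold to 419-fold. Of the egg-high genes, 3 had no antennal read, with 64, 42 and 143 egg reads together, and antennae were lower by at least 16.6-fold to 22.5-fold. Read depth and TMM factors both bear on how easily a count of 0 is reached, and here they ran opposite ways. The antennae had the deepest library and the eggs the larger factors. Their part in these counts of 0 was not tested.

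The 119 antenna-high genes past 64-fold took 26.8%, 20% and 27.4% of antenna reads in replicates 3, 4 and 7, so that a small set made up much of the antennal RNA. In eggs the same genes took 0.183%, 0.648% and 0.487%. For every 100 antenna reads of these genes there were 0.805, 8.79 and 0.524 egg reads in the pools of replicates 3, 4 and 7. These are ratios of raw reads and follow library depth. The antenna libraries of replicates 4 and 7 held 58544 and 1105094 reads. As a share of reads, the egg libraries of replicates 4 and 7 held more of the antennal genes than that of replicate 3. The same order was seen over all antenna-high genes, at 11.3%, 10.6% and 7.8% of egg reads. The part of the pools in this order was not tested.

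The abundant genes of the 2 body parts were mostly different ones. Of the 100 most counted genes in each, by mean share of reads, 19 were common to both, and of the 20 most counted, 2. Among the 100 most counted antennal genes 90 were antenna-high, 0 egg-high and 1 was not tested, where 24.1% of all tested genes were antenna-high and 28.2% egg-high. Among the 100 most counted egg genes 47 were egg-high, 10 antenna-high and 43 not called. Most abundant genes of antennae were called lower in eggs, while fewer of the abundant genes of eggs passed the test. The lists were ranked on the same libraries that made the calls, so abundance in 1 body part favours a call toward it. The calls also depend on the scaling, so the contrast between the 2 lists is a description only. These are shares of reads, not levels per length.

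By mean level, 1 gene came first in both body parts, the GeneMark model 0.4 of contig falcon_000292F, with 3603 bases. Its place in antennae rests on replicate 4, since in replicates 3 and 7 the antenna-high gene described next took more reads. The GeneMark model took 3.88%, 0.944% and 5.71% of egg reads and 8.39%, 22.3% and 5.72% of antenna reads in replicates 3, 4 and 7. Each antenna library was above each egg library, barely so in replicate 7. The other body parts held much of it too, with 20.4%, 67.2% and 9.94% of gut reads and 8.56%, 9.27% and 14.8% of carapace reads. The gut libraries were shallow, at 32202, 4161 and 26378 reads in replicates 3, 4 and 7. The fitted log2 fold change of -3.19 ± 1.53 (SE; 95% interval -6.45 to 0.07) did not pass the test (edgeR adjusted p = 0.0934). DESeq2 (adjusted p = 0.000899), limma voom (adjusted p = 0.00497) and edgeR without the egg library of replicate 3 (adjusted p = 0.0301) called it, and over all 16 alternatives the adjusted p ran from 0.000899 to 0.309.

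The most counted antenna-high gene was a model of 7145 bases on contig falcon_000005F, which was singled out after its values were seen. It took 10.4%, 4.7% and 15.4% of antenna reads in replicates 3, 4 and 7 and 0.0677%, 0.4% and 0.256% of egg reads. The log2 fold change was -6.83 ± 1.70 (SE, edgeR adjusted p = 0.00353). It lies on stretch 33 of that contig, as the identifiers number it, where 7 of 11 tested genes were antenna-high and together took 13.1%, 6.09% and 18.1% of antenna reads and 11%, 8.16% and 10.1% of carapace reads. The most counted egg-high gene, a model of 1550 bases on contig falcon_000007F that was singled out in the same way, was far less dominant, at 0.614%, 0.646% and 0.678% of egg reads. It took 0.0706%, 0.0461% and 0.0614% of antenna reads, a log2 fold change of 2.01 ± 0.57 (SE, edgeR adjusted p = 0.00825).

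For 1330 genes the test made no call, which does not show that they are used alike. The 95% interval of the fold change lay within 2-fold in both directions for 69 of them, 2.48% of the genes tested. Only these can be called close to equal at this depth, and only with TMM factors. Library size alone shifted log2 fold changes by 1.48 toward eggs, so closeness depends on the scaling as well. They had a median of 196 reads over the 6 libraries, against 175 for the other genes not called. The fitted difference was over 2-fold for 153 of the 1330 genes. Below the count filter, 13839 further genes had a read in the 6 libraries and 17333 had none.

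The other 5 body parts show where the genes of each set were read, in 15 libraries that took no part in the calls. The egg-high genes took 32.5%, 32.7% and 30% of egg reads in replicates 3, 4 and 7 and 2.52%, 1.76% and 2.31% of antenna reads. In the carapace they took 3.99% ± 2.51 (SD, n = 3), in the carcass 9.27% ± 3.31 (SD, n = 3) and in hemocytes, the circulating cells of the hemolymph, 9.13% ± 5.38 (SD, n = 3). In gut and head single libraries stood out. The gut of replicate 7 gave 21.7% of its reads to egg-high genes, against 5.62% and 2.45% in replicates 3 and 4. The head of replicate 3 gave 13.1%, against 1.46% and 1.55% in replicates 4 and 7. By mean level over all 7 body parts, 714 of the 784 egg-high genes were highest in eggs, 25 in hemocytes, 21 in gut, 16 in carcass, 5 in head and 3 in carapace. Of the genes not called, 33.5% were also highest in eggs, so the 91.1% of the egg-high genes is read against that share.

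The antenna-high genes were read in much of the body. They took 58.6%, 51.2% and 60.3% of antenna reads and 7.8%, 11.3% and 10.6% of egg reads. In the carapace, the cuticle-covered shell around the trunk, they took 53.3%, 42.2% and 54%, so that the carapace of replicates 3 and 7 lay within the antennal range. The carcass followed with 34.9% ± 2.70 (SD, n = 3) and the head with 32.3% ± 2.35 (SD, n = 3). Hemocytes ran from 22.4% in replicate 4 to 56.7% in replicate 7, and the gut from 11.7% in replicate 7 to 27.9% in replicate 3. By mean level, 319 of the 671 were highest in antennae, 229 in carapace, 47 in head, 39 in hemocytes, 32 in carcass and 5 in gut. That is 47.5% in antennae and 34.1% in carapace, where 12% and 16.4% of the genes not called were highest. Eggs or antennae being lowest or highest follows in part from how the sets were made. Of the antenna-high genes 0 were highest in eggs, against 33.5% of the genes not called. This leaves larger shares for all other body parts, so the contrast with 12% and 16.4% also follows in part from the selection.

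**Figure D4:**
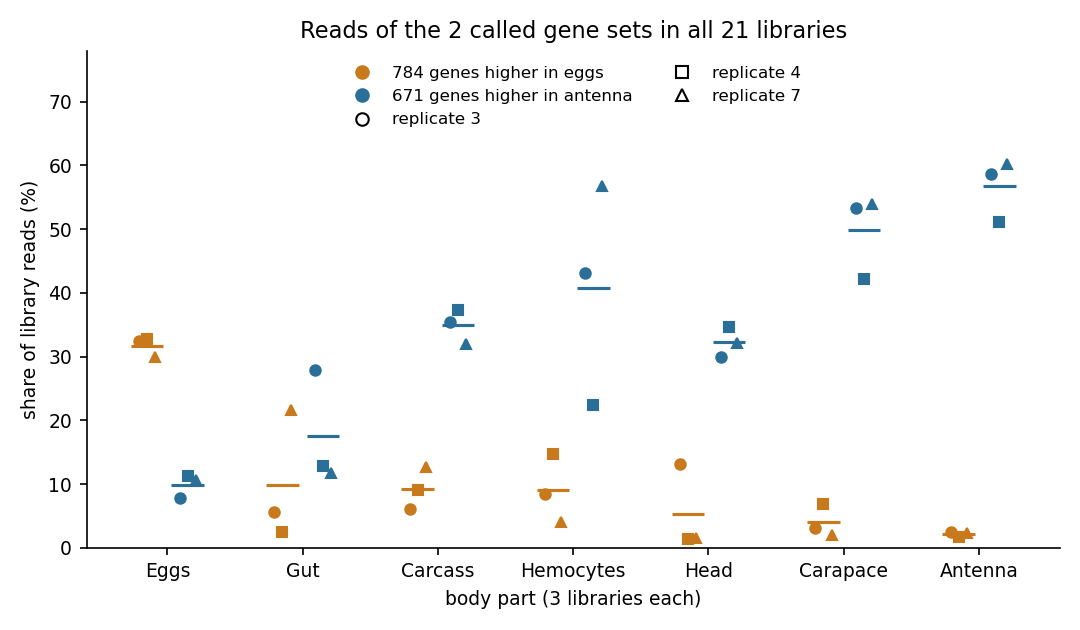
The x axis gives the 7 body parts and the y axis the share of library reads in percent; each point is 1 library, its shape gives the replicate, and bars mark the mean of 3. Orange gives the 784 egg-high genes, at 30% to 32.7% of egg reads, and blue the 671 antenna-high genes, at 51.2% to 60.3% of antenna reads and 42.2% to 54% of carapace reads.

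Carapace and head libraries correlated most with antenna libraries, each at a median Spearman coefficient of 0.63 across genes, and the carapace did so in the narrower range, 0.59 to 0.71. Antenna was therefore set against carapace in the same way, with 1534 genes tested. Of these, 139 were higher in antennae, 9.06%, and 59 in carapace, 3.85% (edgeR, adjusted as above). Apart from the scaling of each fit, this contrast is the difference between the distance from eggs to antennae and that from eggs to carapace. Among the genes it tested, it names those for which antennae differ from eggs by another amount than the carapace does. Its own count filter kept 617 of the 671 antenna-high genes but only 97 of the 784 egg-high genes. Most egg-high genes are therefore not covered by it. Eggs against carapace, which shares the egg libraries with eggs against antenna, had 2931 genes tested, with 665 higher in eggs, 22.7%, and 757 higher in carapace, 25.8%. The antenna-to-carapace counts rested on single libraries. Genes higher in antennae numbered 237 when the antenna of replicate 4 was left out, and 78, 60 and 88 when the carapace of replicates 3, 4 and 7 was. Genes higher in carapace numbered 31 and 89 when the antenna of replicates 3 and 4 was left out, and 32 and 33 when the carapace of replicates 3 and 4 was. The interval of the difference lay within 2-fold for 14 genes, so the remaining genes not called are not shown to be alike.

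Antenna-high genes shared parts of a contig more often than the share called over all tested genes, and egg-high genes slightly more often. In the identifiers, the contig is followed by a number that, in the naming of the MAKER annotation pipeline, counts stretches along it; no coordinates are given, and that reading rests on the naming alone. Genes of 1 contig with the same number are called neighbours here. Of the tested neighbours of antenna-high genes, 38.1% were antenna-high, beside 24.1% of all tested genes, and 20.6% were egg-high. Of the tested neighbours of egg-high genes, 33.7% were egg-high, beside 28.2% of all, and 19.9% were antenna-high. Under each of the 16 alternatives, the share of like neighbours was above the share called, for both directions. Models can overlap or be near-identical copies, whose counts may repeat or divide the same reads, and strand is not stated for the counts, so single members of a stretch are uncertain. Repeated counts were present: 63 tested models had counts over the 21 libraries within 5% of those of a neighbour, and repeats raise the shares above. With 1 model kept of each such set, chosen after the data were seen, 2751 models were left. The share of like neighbours was then 37.9% for antenna-high genes, beside 24.1% of the models kept, and 33% for egg-high genes, beside 28.2%.

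Stretches with 5 or more genes called the same way numbered 11 for antennae and 5 for eggs. Of the 916 stretches with a tested gene, only 190 had 5 or more tested genes and could qualify. Those described here were chosen after their values were seen. Without the repeated models the numbers were 10 and 4, beside 34 stretches with 5 or more genes not called. Stretch 7 of contig falcon_000018F had 11 tested genes among 38 models, and all 11 were antenna-high, with log2 fold changes of -8.42 to -3.19 and lengths of 282 to 1805 bases. Together they took 1.42%, 2.22% and 1.2% of antenna reads in replicates 3, 4 and 7 and 0.0574%, 0.204% and 0.149% of egg reads. In the carapace they took 1.9%, 1.54% and 2.36%, as much as in antennae, and in hemocytes of replicate 7 they took 3.82%, the highest share of any library.

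Contig falcon_000036F was the most lopsided of the 32 contigs with 20 or more tested genes: 32 of its 46 tested genes, 69.6%, were antenna-high and 7, 15.2%, were egg-high. On its stretch 5 all 9 tested genes were antenna-high, at log2 fold changes of -9.08 to -5.19. They took 0.541%, 0.284% and 1.2% of antenna reads, 0.00284%, 0.0754% and 0.0402% of egg reads, and 0.516%, 0.79% and 0.96% of carapace reads. On its stretch 3 all 6 tested genes were antenna-high, at -8.63 to -7.20, with 3.04%, 1.63% and 2.15% of antenna reads and 0.00455%, 0.0346% and 0.039% of egg reads. Here the carapace was lower, at 0.532%, 0.267% and 0.232%, below every antenna library. Stretches of the same contig therefore differed in how they were read in carapace, stretch 5 at antennal levels and stretch 3 below them.

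Stretch 16 of contig falcon_000026F showed a further pattern. Its 5 tested genes were all antenna-high, 1 of them repeating a neighbour's counts, at log2 fold changes of -9.15 to -7.54, with 0%, 0% and 0.00429% of egg reads and 0.275%, 0.135% and 0.396% of antenna reads. The carcass gave them more in each replicate, 0.362%, 0.224% and 0.662%, and the carapace less, 0.0724%, 0.0437% and 0.0151%. On the egg side, stretch 14 of contig falcon_000005F had 6 of 6 tested genes egg-high, at log2 fold changes of 1.69 to 7.29. They took 0.111%, 0.0986% and 0.0896% of egg reads and 0.00404%, 0.00342% and 0.0057% of antenna reads. In the gut of replicate 7 they took 0.091%, close to the egg level, against 0.0155% and 0% in the guts of replicates 3 and 4. Stretch 6 of contig falcon_000018F, next in number to the antennal stretch above, had 5 of 5 tested genes egg-high, with 0.275%, 0.339% and 0.279% of egg reads and 0.0141%, 0.012% and 0.00977% of antenna reads. The gut of replicate 7 gave them 0.284%, within the egg range, against 0.0621% and 0% in the guts of replicates 3 and 4. The carcass of replicate 7 gave them 0.174%. The gut shares of these 2 egg stretches come from shallow libraries, with 32202, 4161 and 26378 reads in replicates 3, 4 and 7.

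Over the 15 libraries of the other body parts, the levels of genes of 1 stretch correlated to very different degrees. The median coefficient ran from 0.51 to 0.95 over the 11 antennal stretches and from 0.45 to 0.69 over the 5 egg stretches. The median Spearman coefficient between genes was 0.79 over the 55 pairs of stretch 7 of contig falcon_000018F, 0.81 over the 36 pairs of stretch 5 of contig falcon_000036F and 0.93 over the 15 pairs of its stretch 3. It was 0.36 over all pairs of antenna-high genes, 0.38 over all pairs of egg-high genes and 0.15 over all pairs of tested genes. For the egg-high stretches it was 0.68 for stretch 14 of contig falcon_000005F and 0.46 for stretch 6 of contig falcon_000018F, close to the value over all egg-high pairs and with 1 pair at -0.24. These points share 15 libraries of unequal depth, so the coefficients are descriptions with no test. Of the pairs, 3 in stretch 7, 1 in stretch 5 and 4 in stretch 3 were above 0.95.

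**Figure D5:**
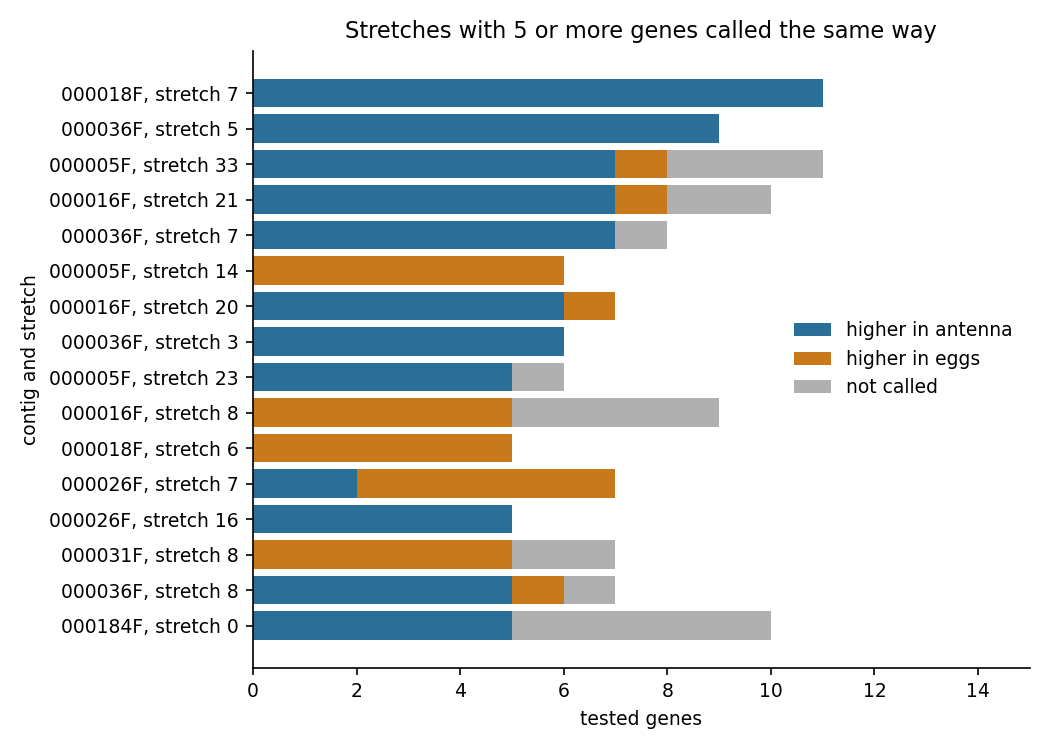
Each bar is 1 stretch of a contig with 5 or more genes called the same way, and the x axis counts its tested genes, blue for antenna-high, orange for egg-high and grey for not called. The 11 antennal stretches include 4 on contig 000036F, and in 4 antennal and 2 egg stretches every tested gene was called the same way.

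The egg-high genes had the shorter models. Their median model length was 2194 bases, with quartiles of 1265 and 3848, against 2836 bases for the antenna-high genes, with quartiles of 1301 and 5143. Genes not called had a median of 3110.5 bases and all tested genes one of 2750, above the 927 bases of all 33957 models. The order depends on the filter: with a minimum count of 30 the medians were 2248 bases for egg-high and 2181 bases for antenna-high genes. The lengths therefore describe the sets tested here and carry no test.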

How the data were processed

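The table deposited by the authors gives a whole-number read count, a length and an RPKM for each of 33957 model transcripts in 21 libraries. SAMtools and DESeq2 are named in the submitters' processing notes; an aligner, genome build or annotation is not given in the sources used here. The authors' RPKM are scaled by the reads of a whole pool (2424632 in replicate 7) rather than of a library, as their ratio to the counts shows, and were not used. The counts of egg and antenna libraries went through edgeR 4.0.16 (R 4.3.3), in a fit on these 6 libraries. It used filterByExpr with a minimum count of 10, TMM factors and a quasi-likelihood test, and antenna and carapace went the same way. The test recovered known changes when tested on simulated data. Few genes were changed there, evenly in both directions, so the simulation does not bear on the choice of scaling. Only the 2 body parts compared entered each fit, since libraries of other body parts differ much among themselves. The kept genes held 82.5% to 88.3% of each library's reads, and 31172 models were left out. Libraries of 1 body part differed beyond sampling noise (chi-square per degree of freedom 3.62 to 13.4) and were counted as separate. Depth limits precision. Bounds use TMM factors, and bounds and thinned values cover counting error only.

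Named genes are the 2 with the largest fold change per direction among called genes whose groups do not overlap and that have at least 20 reads in each library of the higher body part. The libraries, tests and lists were chosen with earlier results of these data known. Marker lists of gene names could not be applied. Per the labels, libraries with the same replicate number were barcoded in 1 pool, which pairs eggs with antennae; their deviations from the body part means correlated at 0.09, 0.04 and 0.15 in replicates 3, 4 and 7. Alternatives were RLE, upper quartile and no factors, other filters, DESeq2 1.42.0, limma 3.58.1 (voom), all 21 libraries, a replicate block, thinning and leaving out each library.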

Additional observations from a re-analysis of the deposited data

How the results depend on the processing

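Of 16 alternatives, 13 kept the egg-high count and 12 the antenna-high count within 1.5 times. Library size alone gave 1767 and 377; all 784 egg-high genes were among the 1767. With no filter there were 2309 antenna-high genes (1041 egg-high), with a minimum count of 30 there were 415 and 305, and with libraries thinned to the shallowest 376 and 306; the last 2 test fewer genes by construction, 1077 and 1147. Leaving out single libraries gave 614 to 806 and 605 to 853. With the replicate block, which pairs the libraries by pool, there were 749 and 665. The fit to all 21 libraries called 676 and 1006, of which 596 and 520 were also called here; its share of egg-high calls was 40.2%, against 31.1% with no filter and 53.9% here. For antenna against carapace, the genes higher in antennae and in carapace numbered 77 and 33 with a minimum count of 30, 80 and 29 after thinning, and 56 and 34 with all 21 libraries. The carapace count was 95 with upper quartile factors, and the antenna count 83 with library size alone and 308 with no filter. Without single libraries they ran from 60 to 237 and 31 to 89. The cause of these changes was not tested beyond what each alternative's construction shows. Keeping 1 model of each set of repeated counts, chosen after seeing the data, changed the shares of like neighbours little, to 37.9% and 33%. The 4 named genes kept direction and call wherever they were tested. The difference in genes detected kept its sign in 9 of 9 alternatives, none of which could reach 0.05. The shallowest antenna library, 58544 reads, limits which low genes can be compared.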
